A study of Mus musculus with 5 samples.

Results

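The Musashi genes Msi1 and Msi2, together with Numb and its relative Numbl, were followed through every probe set that the array's annotation assigns to exactly 1 symbol equal to one of these 4 names. The 4 are among 18193 genes that have such a probe set, and they gave 14 of 45101 probe sets, of which 8 belong to Msi2, 3 to Msi1, 2 to Numb and 1 to Numbl. RNA came from bone marrow cells of C57BL/6 mice, sorted by flow cytometry as stem and progenitor cells. It was amplified linearly and hybridised to Affymetrix mouse arrays, 2 from MSI2-inducible mice and 3 from control rtTA mice, where rtTA is the transactivator that switches on inducible genes when doxycycline is given. The sources used here do not give the transgene's sequence or promoter, whether and for how long it was induced, whether MSI2-inducible mice carried rtTA too, the animals' age, or whether each array stands for its own animal. The p-values therefore reflect variation among these arrays, some of which may be technical. The sample labels put the cells in a Sca1-positive, Kit-positive gate, while the series text names a gate without Sca1. Every value below is a log2 intensity, and a difference is the MSI2-inducible mean minus the control rtTA mean.

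Musashi proteins are RNA-binding proteins that recognise short motifs in messenger RNAs and alter their translation or stability. Msi1 was characterised in neural stem cells of the mouse, where Numb mRNA is a known target, and Msi2 is the family member known from blood stem and progenitor cells. Numb is an endocytic adaptor protein that inhibits Notch receptors and is handed unequally to daughter cells in some asymmetric divisions. Numbl (Numb-like) is its close homolog. Because Musashi proteins act on translation, a change in Musashi activity need not appear in the target's mRNA level, which is what the arrays measured.

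None of the 14 probe sets passed limma's test (adjusted p between 0.871 and 0.994), where 2 of all 45037 probe sets other than controls passed (0.00444%, both of Mid1, which is no member). At an unadjusted limma p under 0.05, 1 of the 14 was lower in MSI2-inducible cells, where 2.81% of all probe sets were lower and 5.68% differed in either direction. Differences were below 0 in 10 of the 14 and above 0 in 4, and 50.2% of all probe sets had a difference below 0. The groups' arrays were fully apart in 2 of the 14 probe sets, both of Msi2 and both lower in MSI2-inducible cells, where 9.66% of all probe sets separated in that direction and 18.9% in either. The members' median differences were -0.24 for Msi2, 0.21 for Msi1, -0.19 for Numb and -0.11 for Numbl, and the median over all probe sets was -0.0012. A probe set reads only its own stretch of transcript. Bright, dim and brightest refer here to signal on the array. They do not compare transcript amounts between probe sets or genes.

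**Figure D1:**
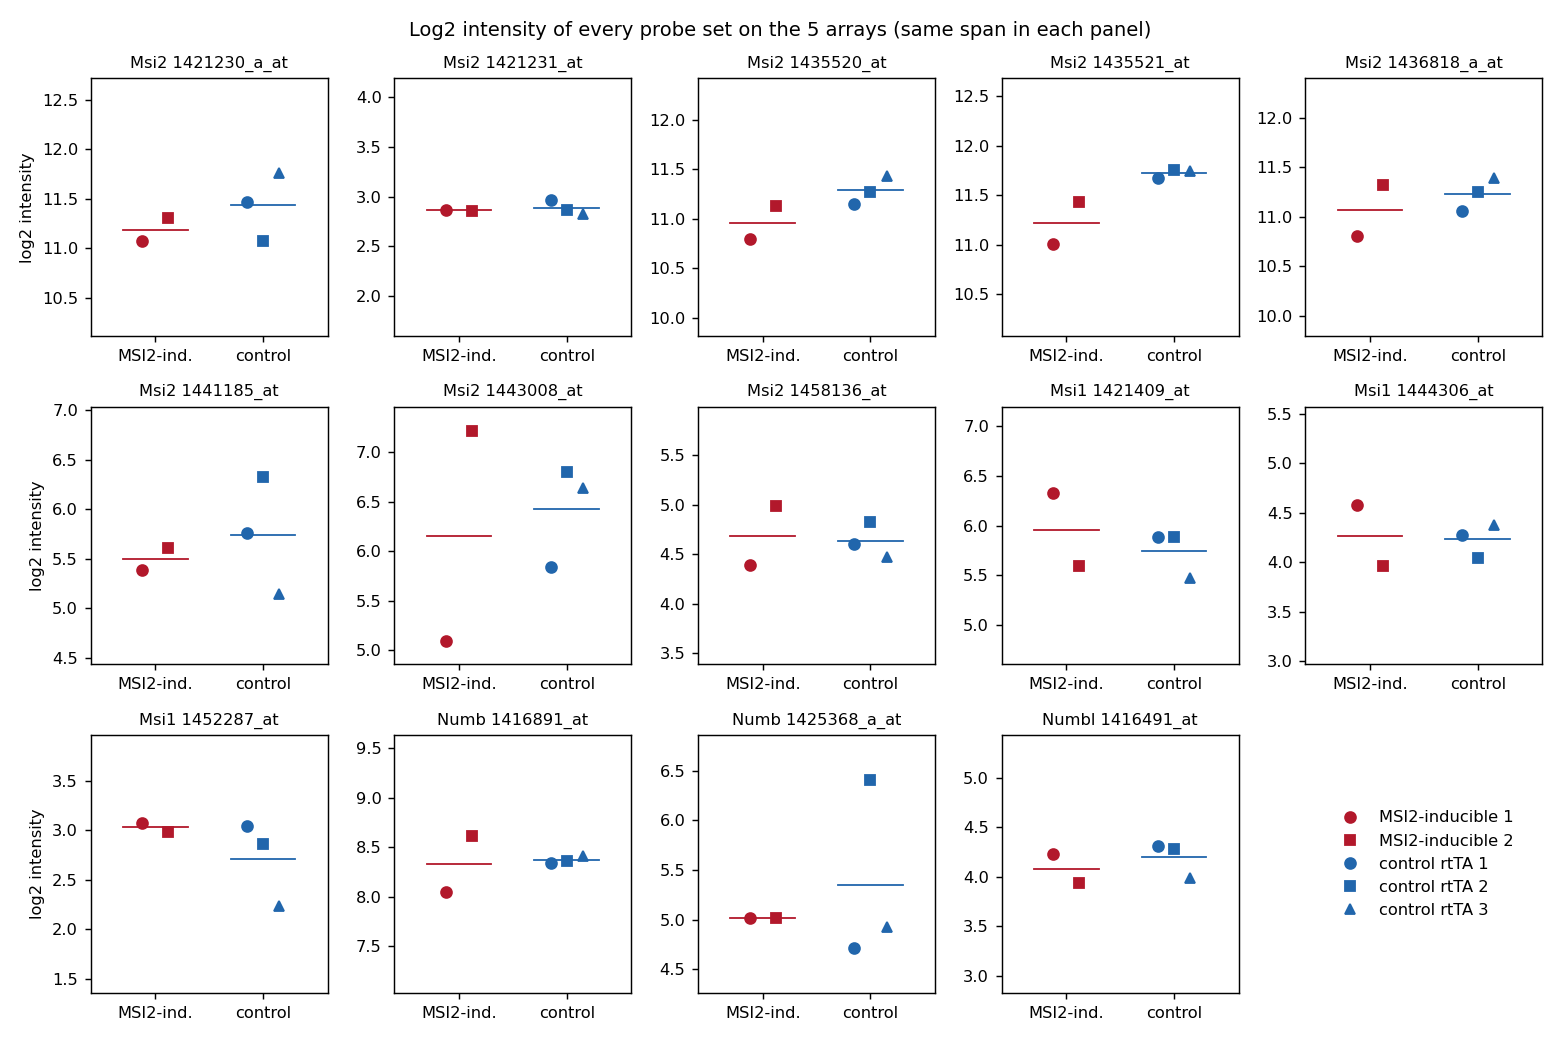
Log2 intensity (vertical axis, the same span in every panel) of each probe set of Msi2, Msi1, Numb and Numbl on the MSI2-inducible arrays (red, left) and the control rtTA arrays (blue, right), with 1 point per array and a line at each group mean. The groups are apart only for Msi2 1435520_at and Msi2 1435521_at, and the MSI2-inducible arrays lie farthest from each other for Msi2 1443008_at (5.10 and 7.22).

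Msi2 showed no detectable rise on any of its 8 probe sets, and 7 of the 8 had a lower mean in MSI2-inducible cells. Whether any of these probe sets can read the transgene is unknown, since neither its sequence nor its species is given. The values may be those of the mouse gene alone or of gene and transgene together. The level of transgenic MSI2 therefore cannot be read from them. Its signal was strong: 4 probe sets lay above the median of their array on all 5 arrays, and all 4 of these were lower in MSI2-inducible cells. The largest difference was that of 1435521_at, which had 11.00 and 11.43 in MSI2-inducible replicates 1 and 2, against 11.67, 11.76 and 11.74 in control rtTA replicates 1, 2 and 3. As intensities these were 2052 and 2762 in MSI2-inducible cells, against 3263, 3458 and 3421 in control cells.
Both MSI2-inducible arrays lay below every control array, and the controls themselves spanned only 0.084. The group means were 11.22 ± 0.30 (SD, n = 2) and 11.72 ± 0.04 (SD, n = 3), a difference of -0.51 with a 95% interval of -1.005 to -0.0057 and a limma adjusted p of 0.871. On the linear scale this is 0.705 times the control level, with an interval of 0.498 to 0.996. Of all probe sets, 16.5% had a larger absolute difference.

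Its partner 1435520_at, which the annotation ties to the same target sequence, gave the same order of groups. It had 10.80 and 11.13 in MSI2-inducible cells, against 11.15, 11.27 and 11.44 in control cells. The groups were apart by the narrow gap between MSI2-inducible replicate 2 and control replicate 1. The difference was -0.32 (95% interval -0.82 to 0.18, limma adjusted p 0.901), and it ran from -0.49 without MSI2-inducible replicate 2 to -0.16 without MSI2-inducible replicate 1.

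The other bright Msi2 probe sets overlapped between groups. Both 1421230_a_at and 1436818_a_at carry the suffix that marks probe sets shared by alternative transcripts of a gene. The first had 11.07 and 11.30 in MSI2-inducible cells, against 11.47, 11.07 and 11.76 in control cells, a difference of -0.24 (95% interval -0.88 to 0.39). Control replicate 2 was here as low as MSI2-inducible replicate 1, and the difference ran from -0.42 without control replicate 2 to -0.082 without control replicate 3. It was -0.13 without MSI2-inducible replicate 1. The probe set 1436818_a_at had 10.81 and 11.32 in MSI2-inducible cells, against 11.06, 11.25 and 11.39 in control cells, a difference of -0.17 (95% interval -0.74 to 0.41). Only MSI2-inducible replicate 1 was below the controls there. Over these 4 bright probe sets, the upper ends of the intervals lay between 0.996 and 1.33 times the control level.

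The 4 dimmer Msi2 probe sets carried less information. The probe set 1443008_at, above its array's median on 4 of the 5 arrays, had 5.10 and 7.22 in MSI2-inducible cells, against 5.84, 6.80 and 6.64 in control cells. The MSI2-inducible arrays were the lowest and the highest of the 5, and the difference of -0.27 had an interval of -1.91 to 1.37. The probe set 1441185_at had 5.39 and 5.61 in MSI2-inducible cells, against 5.76, 6.32 and 5.14 in control cells, with both MSI2-inducible values inside the control range. Its difference was -0.24 (95% interval -1.15 to 0.66).
The remaining pair lay under the median of their array on every array. For 1458136_at the values were 4.39 and 4.98 in MSI2-inducible cells, against 4.60, 4.83 and 4.47 in control cells, a difference of 0.054 (95% interval -0.57 to 0.67). For 1421231_at they were 2.86 and 2.86 in MSI2-inducible cells, against 2.96, 2.86 and 2.82 in control cells, a difference of -0.022 (95% interval -0.44 to 0.39). The annotation gives 1421231_at the same target sequence as 1421230_a_at, although 1421231_at lay under the array's median on all 5 arrays and 1421230_a_at above it. The 8 Msi2 probe sets come from 6 target sequences, 2 of which carry a pair each, so they are not 8 separate measurements of the gene.

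**Figure D2:**
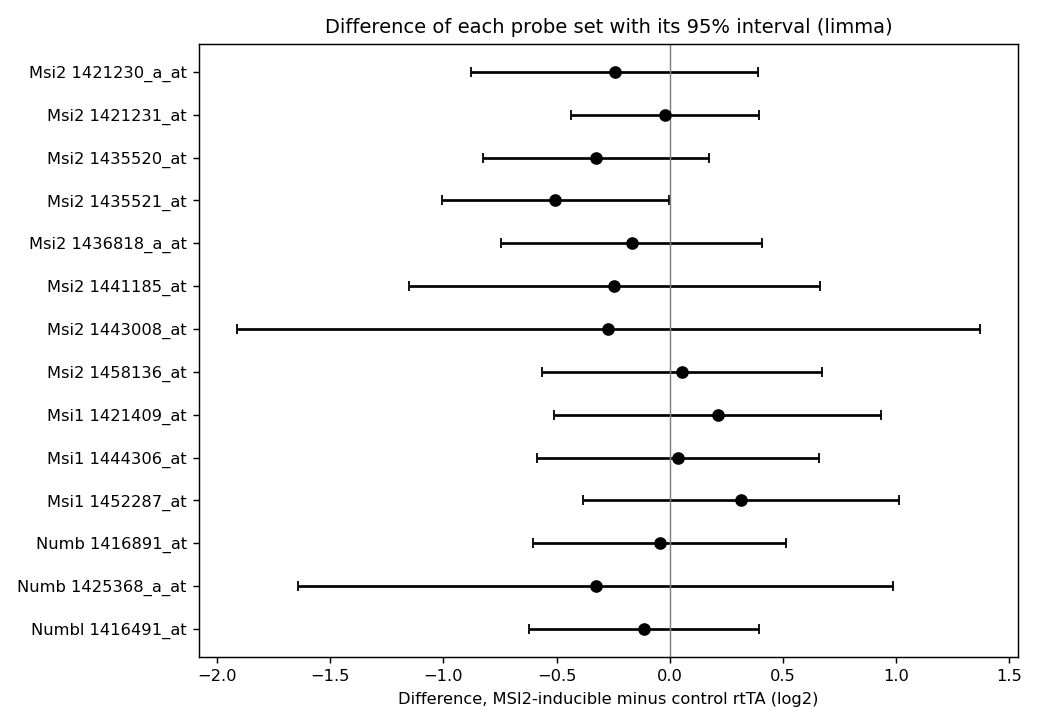
Difference of each probe set, MSI2-inducible minus control rtTA on the log2 scale (horizontal axis), with its 95% interval from limma. Only the interval of Msi2 1435521_at, from -1.005 to -0.0057, leaves out 0, before any adjustment for the number of probe sets tested.

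How far Msi2 lay lower depended on single arrays of both groups, and for some probe sets so did the direction. MSI2-inducible replicate 1 was the lowest of the 5 on 6 of the 8 Msi2 probe sets, and it lay below MSI2-inducible replicate 2 on 7 of them. Relative to the average of the controls, the 4 bright probe sets had medians of -0.46 on MSI2-inducible replicate 1 and -0.14 on MSI2-inducible replicate 2, while the controls lay at -0.094, 0.0017 and 0.15. Without MSI2-inducible replicate 1, the median difference of the 8 probe sets was -0.077, and without MSI2-inducible replicate 2 it was -0.39. Leaving out control replicate 2 or 3 gave -0.12 and -0.13, and leaving out control replicate 1 gave -0.25. For 1435521_at the difference was -0.29 without MSI2-inducible replicate 1 and -0.72 without MSI2-inducible replicate 2, so each array on its own lay below the controls. Leaving out MSI2-inducible replicate 1 turned the direction of 1436818_a_at (0.088) and 1443008_at (0.79).

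**Figure D3:**
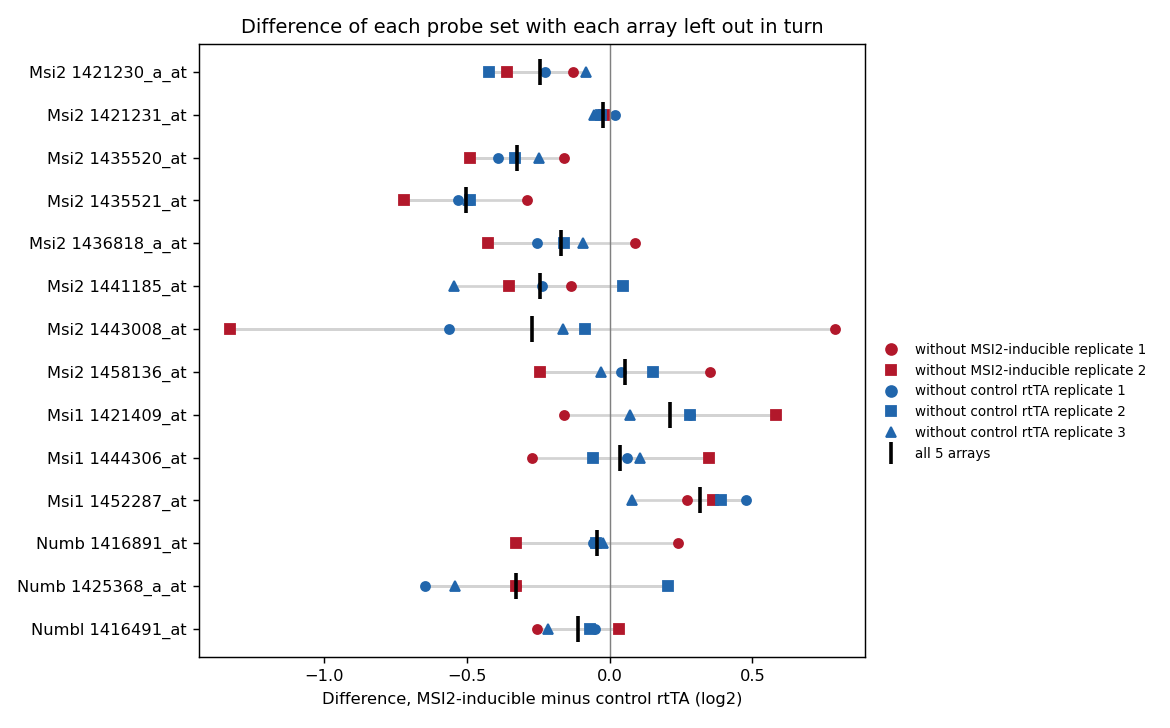
Difference of each probe set (log2, horizontal axis) with all 5 arrays (black bar) and with each array left out in turn (red for an MSI2-inducible array left out, blue for a control rtTA array). The differences of Msi2 1421230_a_at, 1435520_at and 1435521_at and of Msi1 1452287_at keep their sign in all 5 cases, and that of Msi2 1443008_at runs from -1.33 to 0.79.

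Markers of several cell types differed between these arrays. The 9 measured of 9 mature neutrophil markers lay 1.99 above the control average, in the median, on MSI2-inducible replicate 1, and at -0.95 on MSI2-inducible replicate 2, while the controls lay at 0.33, -0.61 and 0.28. Their summed log2 level was 74.3 to 100.2 in MSI2-inducible cells and 75.4 to 84.3 in control cells. Lcn2, a neutrophil granule protein, had 11.47 and 6.94 in MSI2-inducible cells, against 8.83, 7.05 and 8.96 in control cells.
The 8 measured of 10 stem and progenitor markers had medians of -0.37 and 0.19 in MSI2-inducible replicates 1 and 2, against -0.16, 0.080 and 0.058 in control replicates 1, 2 and 3. Their summed log2 level was 74.7 to 79.8 in MSI2-inducible cells and 77.7 to 79.4 in control cells. Kit, the stem cell factor receptor used in the sort, had 8.80 and 9.50 in MSI2-inducible cells, against 9.19, 9.35 and 9.66 in control cells. Slamf1, a receptor of long-term stem cells, was the only gene of that list whose groups lay fully apart, with 5.57 and 7.22 in MSI2-inducible cells, against 7.36, 7.99 and 7.66 in control cells (difference -1.27, limma adjusted p 0.883). The other 7 differed by -0.25 to 0.17, with Flt3 (0.17) and Procr (0.093) above 0. Groups lay fully apart in 18.7% of all genes, each read by its brightest probe set. The gene of Sca1, Ly6a, was not analysed here. Erythroid markers, 6 measured of 8, had medians of 1.07 and 0.46 on the MSI2-inducible arrays, while the controls lay at 0.26, -0.15 and -0.21. Their summed log2 level was 42.3 to 46.9 in MSI2-inducible cells and 39.2 to 43.5 in control cells. Gene by gene they did not agree. Car1 and Epor lay above every control on both MSI2-inducible arrays, and Klf1, Hba-a1 and Alas2 overlapped. Gata1 lay below every control, with 6.91 and 6.85 in MSI2-inducible cells, against 7.61, 7.52 and 7.09 in control cells. Stroma and endothelium markers, 4 measured of 4, had medians of -1.02 and -0.80 on the MSI2-inducible arrays, while the controls lay at -0.50, 0.87 and -0.27. Their summed log2 level was 21.4 to 22.5 in MSI2-inducible cells and 24.0 to 28.3 in control cells. Of these genes only Cxcl12 had groups fully apart (difference -2.16). Cdh5 (-1.02) and Pecam1 (-0.80) overlapped, as did Col1a1, which went the other way (0.32). The part of these markers in the Msi2 values was not tested. In sorted populations, fewer cells that hold a transcript and less of it per cell cannot be told apart.

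**Figure D4:**
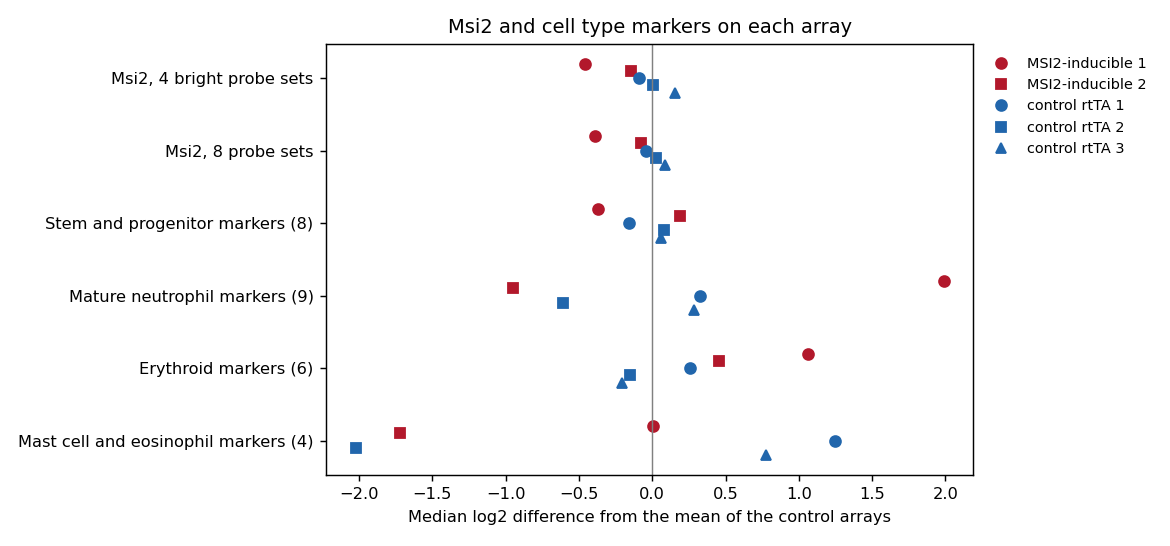
Median log2 difference from the control mean (horizontal axis) on each array, for the Msi2 probe sets and for 4 marker lists with their number of measured genes; red points are MSI2-inducible and blue points control rtTA arrays. MSI2-inducible replicate 1 is lowest for Msi2 (-0.46 over the 4 bright probe sets) and highest for neutrophil markers (1.99).

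Numb transcripts did not differ detectably between the groups. The brighter probe set, 1416891_at, had 8.04 and 8.61 in MSI2-inducible cells, against 8.34, 8.36 and 8.41 in control cells. The control arrays lay within 0.074 of each other, and the MSI2-inducible arrays fell on either side of them. The difference was -0.044 (SE 0.22, 95% interval -0.60 to 0.52, limma adjusted p 0.988), or 0.970 times the control level with an interval of 0.659 to 1.43. It was -0.33 without MSI2-inducible replicate 2 and 0.24 without MSI2-inducible replicate 1.
The dimmer probe set, 1425368_a_at, had 5.02 and 5.02 in MSI2-inducible cells, against 4.71, 6.41 and 4.92 in control cells. Control replicate 2 was the only array on which it lay above the array's median. The MSI2-inducible values were identical to every digit deposited, as were values on at least a pair of arrays for 18.6% of all probe sets, so their SD of 0 is no measure of precision. Its difference of -0.33 (95% interval -1.64 to 0.99) became 0.20 without control replicate 2.

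Numbl, measured by the single probe set 1416491_at, lay under the median of its array on all 5 arrays. It had 4.23 and 3.94 in MSI2-inducible cells, against 4.32, 4.28 and 3.99 in control cells, so the groups overlapped. The difference was -0.11 (95% interval -0.62 to 0.40, limma adjusted p 0.965), and 0.031 without MSI2-inducible replicate 2.

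Msi1, the neural family member, was dim on these arrays, and all 3 of its differences were above 0 without passing the test. Its brightest probe set, 1421409_at, lay above its array's median on 3 of the 5 arrays. It had 6.33 and 5.59 in MSI2-inducible cells, against 5.89, 5.89 and 5.47 in control cells, a difference of 0.21 (95% interval -0.51 to 0.93, limma adjusted p 0.947). The MSI2-inducible arrays lay 0.74 apart, with replicate 1 the highest of the 5.
The other Msi1 probe sets lay under the median on every array. The probe set 1452287_at had 3.08 and 2.99 in MSI2-inducible cells, against 3.04, 2.86 and 2.24 in control cells, a difference of 0.32 (95% interval -0.38 to 1.01) that was 0.080 without control replicate 3. For 1444306_at the values were 4.58 and 3.96 in MSI2-inducible cells, against 4.28, 4.04 and 4.37 in control cells, a difference of 0.037 (95% interval -0.59 to 0.66). It turned to -0.27 without MSI2-inducible replicate 1 and to -0.057 without control replicate 2.

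Spread within the MSI2-inducible group was not confined to the members. Over all probe sets, MSI2-inducible replicate 1 had Pearson correlations of 0.957 to 0.971 with the other arrays. The other pairs of arrays had 0.973 to 0.984. In 8 of the 14 probe sets the MSI2-inducible arrays lay farther apart than the whole range of the control arrays, which was so for 37.9% of all probe sets. When the probe sets of each gene were averaged first, the differences were -0.22 for Msi2, 0.19 for Msi1, -0.19 for Numb and -0.11 for Numbl, with limma adjusted p over all genes of 0.937, 0.950, 0.967 and 0.975.

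Profiles most like those of the members were found by the root mean square difference over the 5 arrays, each profile centred on its own mean. Candidates were genes above the median of all probe sets. Genes with gene model, RIKEN clone or accession-like names were left out. For the brightest Msi2 probe set the nearest candidates were D16Ertd472e (0.028), the RNA helicase gene Dhx36 (0.029) and the nuclear pore assembly gene Ahctf1 (0.048). For Numb they were Rcn2 (0.020), Fbxw8 (0.027) and the haematopoietic transcription cofactor gene Lmo2 (0.029). For Msi1 they were Gpr152 (0.041), Aup1 (0.052) and Ncdn (0.053), and for Numbl Phkg2 (0.038), the kinase gene Map2k1 (0.040) and Adamtsl1 (0.044). Within Msi2, the bright probe sets 1435520_at and 1436818_a_at differed by 0.098 on this measure, and 1435520_at and 1435521_at by 0.12. The other bright pairs differed by 0.19 (1435521_at with 1436818_a_at) and, for 1421230_a_at with the other 3, by 0.20 to 0.27. The measure covers only 5 arrays and is a description.

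Genes of the Musashi, Numb and Notch pathway were examined through 3 lists, with each gene read by its brightest probe set. The lists were drawn up for this report without a cited source. Whether each listed target is bound by Musashi proteins was not checked. The lists are not separate: Hes1 and Jag1 are in both the Notch and the target list, and the target list holds Numb itself. No list member passed limma's test over all genes, where 0.022% of all genes passed. Median differences were -0.0042 for 28 measured of 30 Notch pathway genes and 0.059 for 19 of 20 Numb partners and regulators. For 14 of 15 mRNAs listed as Musashi targets the median was 0.011, against 0.0019 for all 18193 genes. At an unadjusted limma p under 0.05, 0 Notch pathway genes, 0 Numb partners and 3 listed targets (2 higher, 1 lower) were found. Of all genes, 5.64% were. The arrays of each group lay fully apart in 18.7% of all genes.

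Among the genes listed as Musashi targets, Cdkn1a, which encodes the cell cycle inhibitor p21, had the largest difference. It had 8.39 and 8.96 in MSI2-inducible cells, against 8.07, 6.55 and 7.71 in control cells, and the groups did not overlap. The difference was 1.23 (limma adjusted p 0.883), and 0.33 on the gene's other probe set. It was 0.79 without control replicate 2, the lowest array. Bcat1, an enzyme of branched-chain amino acid metabolism, had 5.49 and 5.35 in MSI2-inducible cells, against 4.55, 4.81 and 4.92 in control cells. All control values lay below both MSI2-inducible values, with a difference of 0.66 (limma adjusted p 0.835), and the other Bcat1 probe sets differed by 1.82 and 1.16. The signal was low, since every value of this brightest Bcat1 probe set lay under the lowest array median (5.54). The G1 cyclin Ccnd1 had 8.83 and 8.62 in MSI2-inducible cells, against 9.40, 9.41 and 9.11 in control cells, a difference of -0.58 (limma adjusted p 0.870). Its other probe sets differed by -0.088 and -0.21. Hes1, the Notch target, had 5.73 and 5.36 in MSI2-inducible cells, against 5.20, 5.19 and 4.92 in control cells, a difference of 0.44 (limma adjusted p 0.911) that was 0.25 without MSI2-inducible replicate 1.

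**Figure D5:**
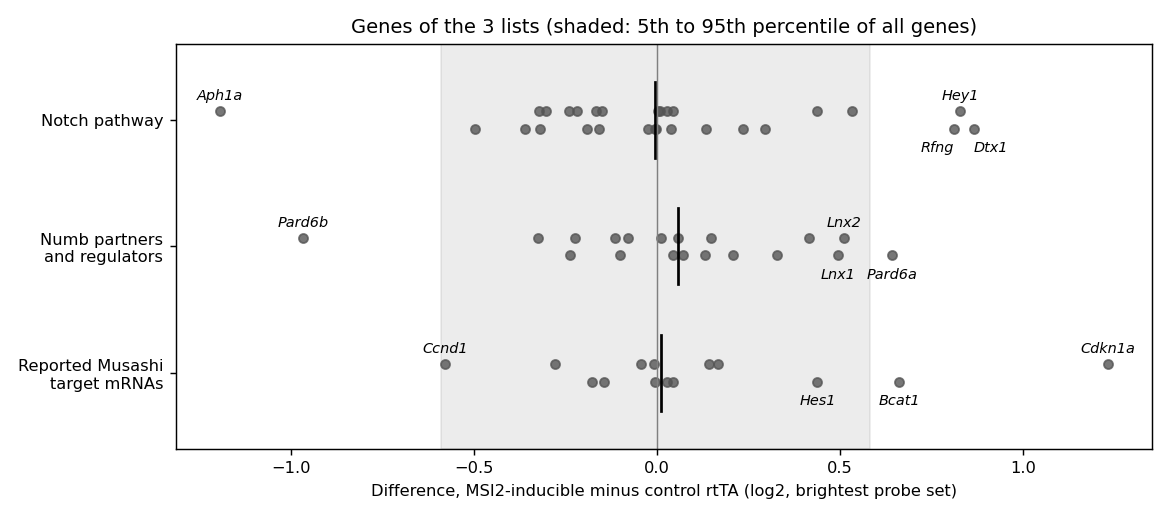
Difference of each measured gene (log2, MSI2-inducible minus control rtTA, horizontal axis) in the 3 lists, with a black line at each list's median and the 4 largest differences of each list named. The shaded band, from -0.59 to 0.58, holds the 5th to 95th percentile of all genes, so most genes lie inside it by definition.

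Numb's partners had differences in both directions. Pard6a and Pard6b belong to the polarity complex whose kinase phosphorylates Numb, and they differed by 0.64 and -0.97 (limma adjusted p 0.907 and 0.925). Pard6b had 4.53 and 7.18 in MSI2-inducible cells, against 7.03, 6.68 and 6.75 in control cells, so its difference rested on MSI2-inducible replicate 1 and was 0.36 without that array. Pard6a had 7.82 and 7.05 in MSI2-inducible cells, against 6.87, 6.98 and 6.53 in control cells. The groups did not overlap, but the difference was 0.26 without MSI2-inducible replicate 1. The ubiquitin ligases Lnx1 and Lnx2, of which Lnx1 is known to target Numb for degradation, differed by 0.49 and 0.51 (limma adjusted p 0.916 and 0.911). Lnx1 differed by only 0.036 without MSI2-inducible replicate 1, and Lnx2 by 0.58 without that array and 0.33 without control replicate 2. The second probe sets of Pard6b and Lnx1 differed by -0.11 and -0.034.

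Notch pathway genes with the largest differences lay at several steps of the pathway. Aph1a, a subunit of the gamma-secretase that cuts Notch, had 6.66 and 8.26 in MSI2-inducible cells, against 8.99, 7.91 and 9.04 in control cells, a difference of -1.19 (limma adjusted p 0.911). Replicate 1 of the MSI2-inducible group was the lowest array, and the difference was -0.39 without it. The gene's other probe sets differed by -0.34 and 0.45. Dtx1, a Notch-binding ubiquitin ligase, had 5.61 and 3.90 in MSI2-inducible cells, against 3.73, 3.92 and 4.02 in control cells. Its difference of 0.87 came from MSI2-inducible replicate 1 and was 0.012 without it.
Hey1, a Notch target, had 6.20 and 6.15 in MSI2-inducible cells, against 4.62, 6.79 and 4.63 in control cells, a difference of 0.83 with control replicate 2 above both MSI2-inducible arrays. Leaving out control replicate 2 gave 1.55, and leaving out control replicate 1 or 3 gave 0.46 and 0.47. Rfng, a glycosyltransferase that modifies Notch, had 8.17 and 7.97 in MSI2-inducible cells, against 7.95, 6.69 and 7.13 in control cells, a difference of 0.81 that was 0.53 without control replicate 2. Its second probe set differed by -0.37. The limma adjusted p values of Dtx1, Hey1 and Rfng were 0.912, 0.928 and 0.911.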

How the data were processed

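The deposited values were probe set intensities on a linear scale, normalized between arrays by the authors, and the submitters' processing notes name RMA, affy and R 2.11.0. The return to a linear scale and the genome build are not given in the sources used here. Array medians were 46.4 to 48.3 intensity units. The log2 of each intensity was taken with no pseudocount. Symbols came from the platform annotation (34958 probe sets with 1 symbol, 932 with several, 9211 unnamed here), updated by Entrez ID through a GRCm38.p6 table. The 64 control probe sets were left out of the tests.

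The comparison used limma 3.58.1 under R 4.3.3 (group as the only term) over 45037 probe sets, and over 18193 genes by brightest probe set, with two-sided p-values adjusted by Benjamini-Hochberg at 0.05. The fit was tested on simulated data. The number of arrays limits the precision. Members, gene lists (3 of the pathway, 9 of cell type markers) and tests were chosen with earlier results of these data known. Named were every member probe set, the 4 largest differences of each pathway list and the 3 most alike profiles per member. Genes named beyond this were chosen after their values were seen. Alternatives covered low values, normalization, offset, variance model, array weights, replicate block, left-out arrays, threshold, mean of probe sets and probe set type.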

Additional observations from a re-analysis of the deposited data

How the results depend on the processing

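No member probe set passed under any alternative run (12 settings, 162 member differences, lowest adjusted p 0.313, for Msi2 1435521_at without MSI2-inducible replicate 2). Of the 162, those under the looser threshold, the variance model or low values left out repeat the main difference by design and could not turn. Direction turned in 14 of the 162. Besides left-out arrays these were Msi1 1444306_at with array weights (-0.0068) and Msi2 1458136_at with replicate number as a block (-0.029). The block gave the same differences as leaving out control replicate 3, which has no same-numbered MSI2-inducible array. It is therefore no separate check of direction. Left-out arrays gave ranges of -0.16 to 0.58 for Msi1 1421409_at, -0.27 to 0.35 for Msi1 1444306_at, -0.053 to 0.019 for Msi2 1421231_at, -0.43 to 0.088 for 1436818_a_at, -0.54 to 0.046 for 1441185_at, -1.33 to 0.79 for 1443008_at, -0.24 to 0.35 for 1458136_at, -0.33 to 0.24 for Numb 1416891_at, -0.65 to 0.20 for 1425368_a_at and -0.26 to 0.031 for Numbl 1416491_at. The median of the Msi2 probe sets ran from -0.39 to -0.077. Of the 12 named list genes, only Pard6b turned (-2.29 to 0.36), and none passed. Probe sets called were 2 higher and 0 lower; array weights gave 1 higher, and low values left out or an adjusted p of 0.10 gave 1 lower. Genes called were 3 higher and 1 lower; array weights or an offset of 16 gave 1 higher, the offset 0 lower, low values left out or quantile normalization once more 2 lower and an adjusted p of 0.10 3 lower. With any array left out, 0 to 0 passed in each direction, for probe sets and genes alike, where a lone MSI2-inducible array was assumed to vary like the controls. With the replicate block 0 probe sets and 0 genes passed; at an unadjusted p under 0.05, 2558 probe sets had been called in the unblocked fit. Deviations of same-numbered arrays correlated at 0.118 and 0.0708, with only 2 pairs and no label that pairs them. The cause was not tested. Gapdh's 3' minus 5' signal was 2.22 and 2.22 in MSI2-inducible arrays and 2.14, 2.60 and 2.40 in control arrays (difference -0.16, exact permutation p = 0.4), and beta-actin's differed by 0.031 (exact permutation p = 0.8), where 0.1 is the smallest p of 3 arrays against 2; the signs held with each array left out (-0.28 to -0.054 and 0.0029 to 0.086). Signal under the array median on every array limits 5 member probe sets. Another 4 lay on both sides of it, with Numb 1425368_a_at above it only on control replicate 2. Low signal also limits Bcat1 on every array, and Hes1 and Dtx1 on every array but MSI2-inducible replicate 1, each by its brightest probe set. Read the same way, Hey1 lay under the median in control replicates 1 and 3, and Pard6b on MSI2-inducible replicate 1.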

Other observations

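Across the 9 lists of cell type markers, no gene passed limma's test over all genes. Median differences were 0.69 for erythroid markers, 0.61 for mature neutrophil, 0.18 for T cell, 0.090 for macrophage, 0.074 for B cell, 0.024 for neural, -0.082 for stem and progenitor, -0.75 for mast cell and eosinophil and -0.91 for stroma and endothelium markers. The eosinophil genes Prg2 and Epx, 2 of the 4 genes of that list, split the arrays of both groups. Cpa3 kept the array order of Prg2 over a narrow range. It had 7.21 and 6.84 in MSI2-inducible cells, against 7.38, 7.13 and 7.28 in control cells. Mcpt8 followed the split in control cells (6.37, 4.73 and 6.37) but not in MSI2-inducible cells (5.65 and 6.76). Prg2, the eosinophil major basic protein, had 8.31 and 3.51 in MSI2-inducible cells, against 9.21, 3.62 and 8.67 in control cells. Among T cell genes, Cd3d differed by 0.26, Cd3g by 0.18 and Cd3e by -0.17. Only the groups of Cd3g lay fully apart, as did those of 18.7% of all genes.

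The neural tubulin gene Tubb3 was singled out after its values were seen. Of the 5 measured neural markers, only Tubb3 had groups fully apart, where 18.7% of all genes did. Nes (0.16), Map2 (0.024), Dcx (-0.0083) and Gfap (-0.027) overlapped. Tubb3 had 5.63 and 6.12 in MSI2-inducible cells, against 4.36, 4.36 and 4.21 in control cells. It was 1.56 higher on average (limma adjusted p 0.368 over all probe sets). For Bcat1, also examined after its values were seen, every MSI2-inducible value lay above every control value on each of the 3 probe sets. Groups lay fully apart in 18.9% of all probe sets, and these 3 read the same gene on the same arrays. All their control values lay under the lowest array median (5.54). The probe set with the largest difference, 1450871_a_at, had 5.32 and 6.05 in MSI2-inducible cells, against 3.73, 3.75 and 4.12 in control cells. Its limma adjusted p was 0.437.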
